A study of Mus musculus with 4 samples.

Results

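Conventional type 2 dendritic cells (cDC2) of the mouse liver were selected on the UMI counts of 15 genes, and 181 cells were taken out of 25161 kept cells (0.719%). A member had at least 3 UMIs in the sum of Cd209a, Clec10a, Mgl2 and Flt3, and at least 20 in the sum of the MHC class II genes H2-Aa, H2-Ab1 and H2-Eb1. It had at most 1 UMI of Fscn1 and Ccl22 together, and none of Xcr1, Clec9a, Siglech, Cd79a, Cd3e or C1qa. A UMI (unique molecular identifier) marks 1 captured RNA molecule, and kept cells had at least 200 genes and at most 10% of their UMIs from mitochondrial genes. The levels of these 15 genes describe the choice and were not tested. The members are called cDC2-gated cells below.

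The cells were CD45+ immune cells, enriched with beads from the liver non-parenchymal fraction. They came from male mice aged 8 weeks that all carried MC38 tumours, grown from a mouse colon carcinoma line, and were taken 3 weeks after tumour injection. Sedentary mice (Sed 1 and Sed 2) were compared with mice exercised before an operation (Ex 1 and Ex 2, also written PEx in the labels), in a model of liver metastasis promoted by surgical stress, with 2 libraries of 10x 3' RNA per group. The labels do not state that each library came from a separate animal, so the p-values measure the spread between these libraries, which may be technical.

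Conventional dendritic cells take up antigen in tissues, load it on MHC molecules and show it to T cells. The type 2 lineage, marked by Sirpa and CD11b and dependent on Irf4, presents mainly to CD4 T cells, while the type 1 lineage (cDC1), marked by Xcr1 and dependent on Irf8, cross-presents antigen to CD8 T cells. Monocytes that enter inflamed tissue can take on class II and some of the lectins that mark cDC2, so Ly6c2 and Fcgr1 are read beside the lineage genes.

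The members were spread very unevenly over the libraries. Sed 1 held 5 members with 46631 UMIs, Sed 2 held 58 with 477939, Ex 1 held 79 with 722939 and Ex 2 held 39 with 404192. Sed 1 gave so few UMIs that 1 of them equals 21.4 CPM, the UMIs of a gene scaled to a common total of its library's member UMIs, and a gene at 0 there could lie at up to 64.3 CPM (3 counts of the library's total, counting error only). The same limit was 6.28 CPM in Sed 2, 4.15 in Ex 1 and 7.42 in Ex 2. Of the 5 members of Sed 1, 3 were among the cells with the highest doublet scores, against 3 of 58, 2 of 79 and 0 of 39 in the others. A single Sed 1 member held all 51 UMIs of Lyz2 and all 20 of Ccr2 in that library. The sedentary values therefore rest mostly on Sed 2. For most genes named in the comparison of Ex with Sed, the text states where leaving out a library ended a call. For the differences between cell types only the number of calls is given that way. Members had a median of 9806, 7354.5, 8059 and 9527 UMIs in Sed 1, Sed 2, Ex 1 and Ex 2, and a median mitochondrial share of 2.36% to 2.92%. No member carried a barcode sequence that was also found in another library, while 83 of the 28442 distinct sequences in the series were.

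Among the 4 genes that marked the members, Cd209a, a lectin of dendritic cells and the mouse relative of DC-SIGN, was detected in 139 of 181 cells. Clec10a, a galactose-binding lectin, was detected in 115, the cytokine receptor Flt3 in 107 and Mgl2, the close relative of Clec10a, in 38. All 4 were detected together in 7 cells, and 12 were included through Flt3 alone (1, 3, 5 and 3 in Sed 1, Sed 2, Ex 1 and Ex 2). Mgl2 and Clec10a are near copies, so reads can be split between them. The marker sum lay at its limit of 3 in 26 members, and 45 cells with a sum of 2 met every other condition. At the class II limit, 2 members had 20 to 29 UMIs, and 6 cells with 10 to 19 met every other condition. Before the exclusions 30, 131, 190 and 102 cells of Sed 1, Sed 2, Ex 1 and Ex 2 passed the positive conditions. The most frequent exclusion was Clec9a in Sed 1, Ex 1 and Ex 2, in 21, 49 and 30 cells. In Sed 2 it was C1qa, in 37 cells, with Xcr1 next in 31.

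Among genes outside the gate, Sirpa and Itgam were higher than in cDC1, and Itgax and Zbtb46 were higher than in monocyte-gated cells. Sirpa, the inhibitory receptor that marks the lineage, stood at 172 and 184 CPM in Sed 1 and Sed 2 and at 187 and 158 CPM in Ex 1 and Ex 2. In cDC1-gated cells of the same libraries it stood at 2.35 to 31 CPM, and in monocyte-gated cells it was higher, at 220 to 267 CPM. Itgam, which encodes CD11b, was at 193, 169, 130 and 181 CPM in the cDC2-gated cells and at most 52.6 CPM in cDC1, with 264 to 411 CPM in monocyte-gated cells. Itgax, which encodes CD11c, was at 236, 182, 112 and 92 CPM, against 2.26 to 4.27 CPM in monocyte-gated cells and 82.8 to 121 CPM in cDC1. Zbtb46, a factor of conventional dendritic cells, was at 21.4, 37.7, 29 and 22.3 CPM, and at 0 to 0.54 CPM in monocyte-gated cells and 34.5 to 70.9 CPM in cDC1. Irf4 was listed at 0 in Sed 1 and at 41.8, 22.1 and 27.2 CPM in the other libraries. Cd24a and Clec12a, also listed for cDC2 identity, went the other way against cDC1. In the order Sed 1, Sed 2, Ex 1 and Ex 2, Cd24a had 2, 15, 47 and 27 UMIs, against 91, 202, 158 and 112 in cDC1. Clec12a had 1, 21, 63 and 20, against 53, 98, 48 and 59. The cDC1 sums held 579499, 646202, 425511 and 282058 UMIs. These levels are descriptions, since the gates chose the cells of each type. Among genes of the described cDC2 subsets, Esam had 3 UMIs in all members, while Nr4a1 was at 360 to 482 CPM and Cebpb at 322 to 592 CPM. Neither is particular to these cells, since monocyte-gated cells held Nr4a1 at 372 to 565 CPM and Cebpb at 2067 to 2874 CPM.

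**Figure D1:**
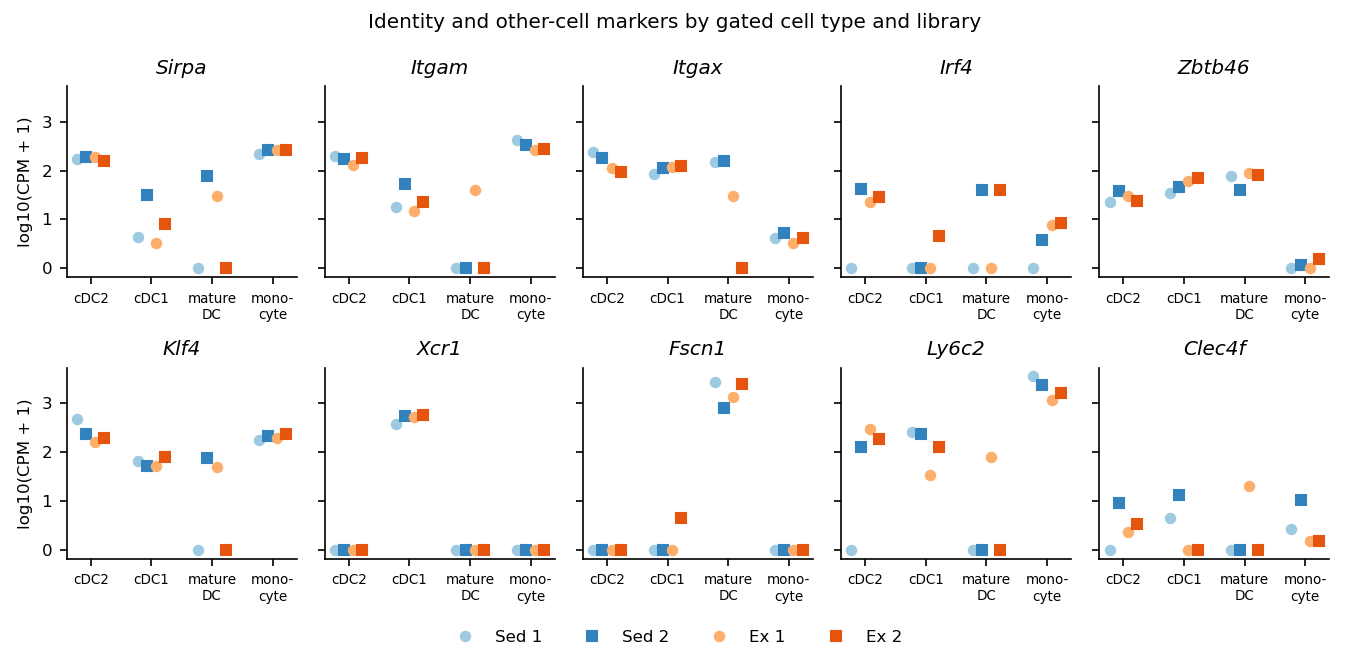
Level of 10 lineage and other-cell marker genes, as log10(CPM + 1), in 4 gated cell types, 1 point per library (light blue circle Sed 1, blue square Sed 2, light orange circle Ex 1, orange square Ex 2). In the cDC2 column Sirpa, Itgam, Itgax and Zbtb46 are above 0 in each of the 4 libraries. Xcr1 is at 0 there by the gate, and Fscn1, which the gate also limits, is at 0 as well.

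Markers of other cell types were mostly low. The Kupffer cell genes Clec4f, Vsig4 and Timd4 had 0 to 4 UMIs per library and Mertk had none in any library. The B cell gene Ms4a1 had none, as did Cd79a by the gate, the natural killer gene Ncr1 had 0 to 2 UMIs, and Alb, from hepatocytes, had 0 to 11. Monocyte genes were higher. The summed level of 16 monocyte markers was 5040 and 5549 CPM in Sed 1 and Sed 2 and 8298 and 7279 CPM in Ex 1 and Ex 2, and no gene of the list was at 0 in every library. Of the 181 members, 86 had a UMI of Ly6c2 or Fcgr1: 1 of 5, 23 of 58, 45 of 79 and 17 of 39. Thinned to 2000 UMIs, Ly6c2 was detected in 0%, 10.3%, 19% and 12.8% of members and in 8.41% of B cell-gated cells. Its share in Sed 1 and Sed 2 was thus at or near background, and that in Ex 2 (5 of 39 members) was little above Sed 2 (6 of 58). Fcgr1 was detected in 20%, 12.1%, 24.1% and 12.8%, against 1.54% of B cell-gated cells, and the Sed 1 share is 1 UMI in 1 cell. Without thinning, Ly6c2 was in 0%, 15.5%, 41.8% and 30.8% of members and 8.84% of B cell-gated cells, and Fcgr1 in 20%, 31%, 49.4% and 33.3% and 2.61%. The summed neutrophil markers were at 172, 299, 3107 and 54.4 CPM, and the high Ex 1 value came mostly from 1 cell with 2087 UMIs of S100a8, S100a9 and Retnlg. The macrophage list summed to 21.4 and 299 CPM in Sed 1 and Sed 2 and to 802 and 480 CPM in Ex 1 and Ex 2. Apoe was its main gene (0, 146, 664 and 294 CPM). The 3 richest cells held 271 of the 480 Apoe UMIs in Ex 1 and 83 of 119 in Ex 2. Thinned to 2000 UMIs, Apoe was detected in 0%, 19%, 19% and 20.5% of members, below the 46.5% of B cell-gated cells.

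The first question was how many such cells there were. They made up 0.0689% of kept cells in Sed 1 (95% exact binomial interval 0.0224 to 0.161%), 0.763% in Sed 2 (0.58 to 0.985%), 1.30% in Ex 1 (1.03 to 1.62%) and 0.92% in Ex 2 (0.655 to 1.25%). The intervals cover counting error only. Both Ex libraries were higher than both Sed libraries, and Sed 1 lay far below the rest. The mean was 0.416% ± 0.491 (SD, n = 2) in Sed and 1.11% ± 0.272 in Ex, and the two-sided exact permutation test gave p = 0.333, the smallest that 2 against 2 libraries allow. Without Sed 1 the difference was 0.349 percentage points in place of 0.696. When each cell was thinned to 2000 UMIs, the shares were 0, 0.476, 0.693 and 0.252%, so that Ex 2 lay below Sed 2. The share of cDC2 among the cDC1- and cDC2-gated cells together was 9.09% in Sed 1 (5 of 55 cells), 45% in Sed 2 (58 of 129), 69.9% in Ex 1 (79 of 113) and 67.2% in Ex 2 (39 of 58). In Sed 1 the 50 cDC1-gated cells, 0.689% of kept cells, lay within the range of the other libraries (0.448 to 0.934%).

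**Figure D2:**
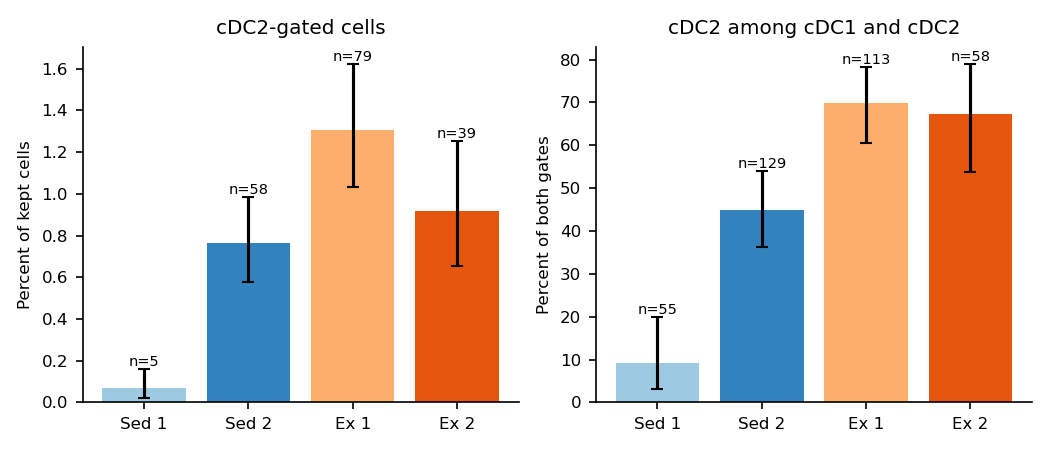
Left, cDC2-gated cells as percent of kept cells in each library; right, cDC2-gated cells as percent of cDC1- and cDC2-gated cells together. Bars are library values, error bars are 95% exact binomial intervals and n is the number of cells; Sed 1, with 5 cells, is lowest in both panels.

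The second question was which genes differed between exercised and sedentary mice within the cDC2-gated cells. UMIs were summed per library and tested with edgeR's quasi-likelihood test over 4923 genes. The interferon-induced chemokines Cxcl9 and Cxcl10, the lysozyme gene Lyz2, Irf8, Il1b, Cd40 and genes of cholesterol synthesis rose in Ex. The eosinophil-type ribonuclease Ear2, the integrin gene Itgae, the lineage factor Id2, Htra3 and Ppp1r14a fell. At an adjusted p under 0.05, 30 genes rose (0.609% of those tested) and 44 fell (0.894%). Of the 74 called genes, 72 had no overlap between the 2 groups of libraries, as did 41.7% of all genes tested. The median log2 change of all genes tested was 0.02. DESeq2 called 12 genes, and each of them was also called by edgeR: Lyz2, Crip1, Vim and Cxcl9 rose, and Itgae, Htra3, Ppp1r14a, Id2, Ly6a, Rgs1, Clec4n and Hspa1a fell. Without Sed 1 the count was 211, without Sed 2 it was 65, without Ex 1 it was 53 and without Ex 2 it was 25, with 73, 22, 35 and 15 of the 74 genes still called. When members with any UMI of Ly6c2 or Fcgr1 were left out, 34 genes were called and 27 of the 74 were among them. Called under every alternative that tested them were Cxcl9, Crip1, Itgae, Htra3, Ly6a and Ppp1r14a.

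**Figure D3:**
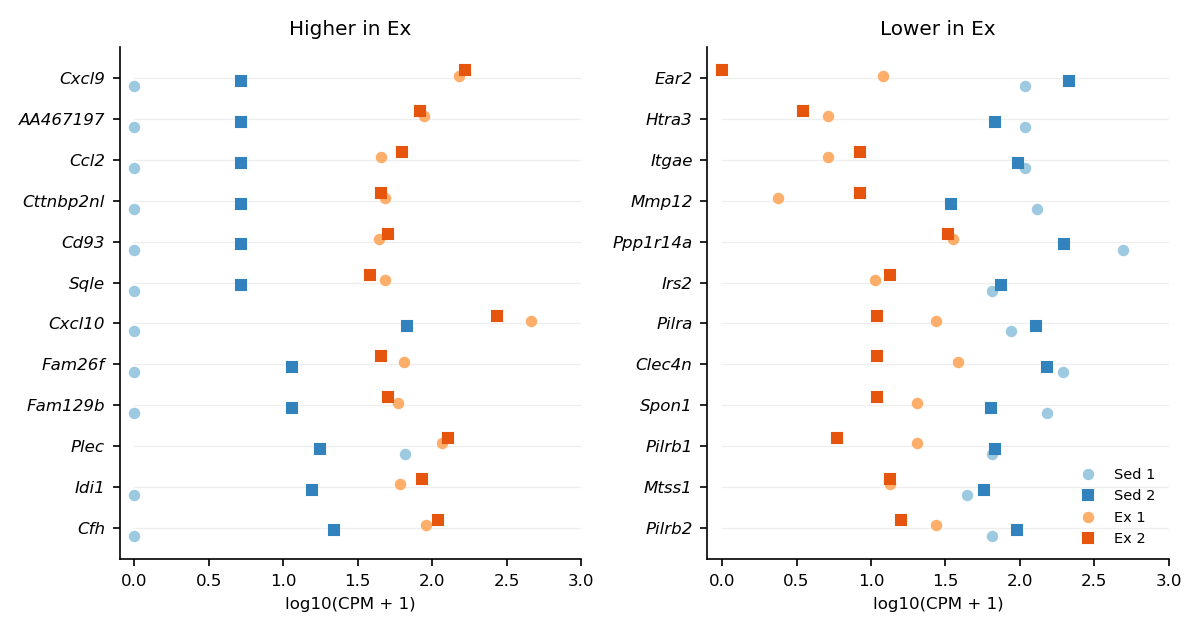
The 12 largest rises (left) and 12 largest falls (right) of the called genes whose groups do not overlap and whose higher mean reaches 10 CPM, as log10(CPM + 1), 1 point per library (light blue circle Sed 1, blue square Sed 2, light orange circle Ex 1, orange square Ex 2). The 4 points of each gene separate by group; many rising genes are at 0 in Sed 1, where 1 UMI equals 21.4 CPM.

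Cxcl10, Irf8 and Hmgcs1, which rose, have short motifs of known immune or sterol factors in the 250 bases before a start site. Their windows are shown as examples picked from the genes that rose, and windows of genes that fell held such motifs as well. The motifs searched on both strands were GAAA followed by any 2 bases and GAAA (interferon-stimulated response element), TTCNNNGAA (gamma-activated site) and TCACNCCAC (sterol response element); overlap between motifs was not counted. They were present in 2.98%, 7.02% and 1.05% of the 32851 promoter windows of the RefSeq table (GRCm38.p6). The table held 17 of the 30 genes that rose, in 25 windows, and the motifs were found in 3, 3 and 1 of these windows. It held 32 of the 44 genes that fell, in 47 windows, with 3, 2 and 2. A match describes the letters and shows no binding. Each sequence is printed 5′ to 3′ on the gene's strand, with the matching letters in capitals.
Cxcl10 (chr5:92348890-92349139, minus strand, match GAAAGTGAAA starting 213 bases before the start): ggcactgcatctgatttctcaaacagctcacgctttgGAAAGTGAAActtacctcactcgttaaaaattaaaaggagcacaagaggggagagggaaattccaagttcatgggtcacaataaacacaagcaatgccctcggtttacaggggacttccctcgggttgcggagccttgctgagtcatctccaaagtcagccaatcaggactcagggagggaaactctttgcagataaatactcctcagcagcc
Irf8 (chr8:120736108-120736357, plus strand, the first of 2 start sites, matches TTCTCGGAA at 171 and TTCAGAGAA at 153 bases before the start): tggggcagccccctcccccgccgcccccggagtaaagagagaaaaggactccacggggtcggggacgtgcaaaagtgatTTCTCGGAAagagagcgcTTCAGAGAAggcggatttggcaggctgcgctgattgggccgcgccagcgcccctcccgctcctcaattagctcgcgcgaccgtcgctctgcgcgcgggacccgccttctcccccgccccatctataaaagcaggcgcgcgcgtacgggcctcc
Hmgcs1 (chr13:119690101-119690350, plus strand, match TCACCCCAC at 137 bases before the start): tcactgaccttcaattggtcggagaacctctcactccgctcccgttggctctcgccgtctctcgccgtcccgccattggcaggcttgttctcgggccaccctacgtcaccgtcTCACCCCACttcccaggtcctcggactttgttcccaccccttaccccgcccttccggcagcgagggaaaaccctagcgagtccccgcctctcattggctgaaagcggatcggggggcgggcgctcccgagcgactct

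Cxcl9, whose product attracts T cells through CXCR3, had the largest fitted rise of the called genes. It (chr5:92321347-92328079, minus strand, positions from GENCODE vM21 on GRCm38) had 0 and 2 UMIs in Sed 1 and Sed 2 and 109 and 67 in Ex 1 and Ex 2, or 0, 4.18, 151 and 166 CPM. Both Ex libraries were far above both Sed libraries. The ratio of Ex to Sed was 41 with a 95% counting interval of 11.2 to 341. Such intervals of ratios cover counting error only, not the spread between cells or libraries. The fitted log2 change of Cxcl9 was 5.23 ± 0.62 (SE, adjusted p = 5.33e-06). Cxcl10 (chr5:92346638-92348889, minus strand), which lies next to it and binds the same receptor, was at 0, 67, 462 and 270 CPM, a log2 change of 2.64 ± 0.43 (adjusted p = 0.00251). The 32 UMIs of Cxcl10 in Sed 2 all came from 1 cell. DESeq2, the stricter cell filter and the thinned sums did not call Cxcl10. Ccl2, which attracts monocytes, had 2 UMIs in Sed and 57 in Ex, a ratio of 13.3 (3.51 to 112), and was not called without Sed 2 (adjusted p = 0.39) or without Ex 2 (0.20). Of 11 tested chemokine genes 3 rose, none fell and 8 did not pass, among them Ccl3 (log2 change -2.30, adjusted p = 0.59). The list's median was 0.82. AA467197, a small mitochondrial-type protein gene that hosts a microRNA, had 0, 2, 63 and 33 UMIs, a ratio of 22.3 (6.02 to 187), and was not called without Sed 2.

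Of 11 tested interferon gamma-induced genes, 2 rose (Cxcl9 and Cxcl10, both also counted as chemokines), none fell and the median log2 change was 0.84. The guanylate-binding protein gene Gbp2 was at 64.3 and 41.8 CPM in Sed 1 and Sed 2 and at 111 and 91.5 CPM in Ex 1 and Ex 2, without overlap, and did not pass (log2 change 1.15 ± 0.39, adjusted p = 0.18). Of 39 tested type I interferon-stimulated genes, none rose, 3 fell and the median was -0.32. Those that fell were Oasl2, an oligoadenylate synthetase-like antiviral gene (107, 211, 91.3 and 59.4 CPM), Rtp4 (172, 172, 59.5 and 71.7 CPM) and the growth regulator Slfn1 (236, 149, 76.1 and 49.5 CPM). Their log2 changes were -1.32 ± 0.33, -1.44 ± 0.33 and -1.38 ± 0.35. None of the 3 was called without Sed 2, without Ex 1 or without Ex 2. Isg15, a ubiquitin-like antiviral protein, was at 429, 624, 425 and 242 CPM (adjusted p = 0.26), Irf7 at 300.2, 245, 224 and 104 CPM (0.53) and Ifit3 at 107, 146, 71.9 and 61.9 CPM (0.12). In cDC1-gated cells Oasl2 (-2.74, adjusted p = 0.0038), Slfn1 (-2.54, 0.00041), Irf7 (-1.80, 2.8e-05) and Isg15 (-1.56, 0.0037) fell as well. For none of them did the difference between the changes in cDC2- and cDC1-gated cells pass (adjusted p 0.051 to 0.44). None of them was called in monocyte-gated cells.

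Cxcl9 and Cxcl10 were concentrated in a few cells. At least 3 UMIs of both together were present in 0 of 5, 1 of 58, 16 of 79 and 9 of 39 members of Sed 1, Sed 2, Ex 1 and Ex 2, or 0%, 1.72%, 20.3% and 23.1%. Thinned to 2000 UMIs per cell, Cxcl9 was detected in 0%, 0%, 12.7% and 10.3% of the members, against 0.653% of B cell-gated cells, which should lack it. The unthinned shares were 0%, 1.72%, 16.5% and 20.5%, with B cell-gated cells at 0.712% and a median depth of 2375 UMIs. The 26 cells with at least 3 UMIs had a median of 8942 UMIs and the other 155 members 8059. Genes that the choice did not use were also detected in more of the 26: Gbp2 in 18 of 26 against 30 of 155, Cd40 in 16 against 29, and Irf1 in 18 against 58. Of the 26 cells 25 came from Ex, and among Ex members alone Gbp2 was in 17 of 25 against 14 of 93, Cd40 in 15 against 23 and Irf1 in 17 against 36, at median depths of 8953 and 8152 UMIs. Id2 was in 12 of these 25 and 54 of these 93. These splits were made after values were seen and were not tested.

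Among the genes of dendritic cell development, 22 were tested, of which Irf8 rose and Id2 fell. The median of that list was 0.05. Id2 (chr12:25093799-25097140, minus strand), an inhibitor of E proteins needed by conventional dendritic cells, was at 1115 and 1151 CPM in Sed 1 and Sed 2 and at 206 and 430 CPM in Ex 1 and Ex 2. The groups did not overlap, and the log2 change was -1.87 ± 0.28 (adjusted p = 0.000469). Id2 was detected in 5 of 5, 56 of 58, 40 of 79 and 26 of 39 members, and after thinning in 80%, 79.3%, 30.4% and 48.7%, against 5.76% of B cell-gated cells. Without members that had Ly6c2 or Fcgr1 the change was -1.51 (adjusted p = 0.085).

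Irf8 (chr8:120736358-120756694, plus strand), a transcription factor of cDC1, plasmacytoid cells and monocytes, was at 21.4, 50.2, 130 and 312 CPM, a log2 change of 2.15 ± 0.48 (adjusted p = 0.0341). Ex 2 was more than 2 times as high as Ex 1, but 90 of its 126 UMIs lay in 3 of 39 cells, and without Ex 2 the gene was not called (log2 change 1.49, adjusted p = 0.56). In cDC1-gated cells Irf8 was at 2007 to 2751 CPM in the same libraries. B cell-gated cells carry Irf8 RNA as well. Klf4, Irf4 and Zbtb46 did not pass. Klf4, which some type 2 cells need, was at 472, 239, 160 and 195 CPM (log2 change -0.78 ± 0.30, adjusted p = 0.29). Over the 14 tested genes of cDC2 identity outside the gate none was called, 5 had positive changes and the median was -0.35.

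Itgae (chr11:73090583-73147446, plus strand) encodes CD103, the integrin that binds E-cadherin, and is best known on cDC1 and on intestinal dendritic cells. It was at 107 and 96.2 CPM in Sed 1 and Sed 2 and at 4.15 and 7.42 CPM in Ex 1 and Ex 2, and the log2 change was -4.15 ± 0.54 (adjusted p = 1.93e-05). A UMI was present in 1 of 5, 22 of 58, 2 of 79 and 1 of 39 members, and in 0.554% of B cell-gated cells. It fell too in cDC1-gated cells, by 0.96 on the log2 scale (SE 0.26, adjusted p = 0.037), from 267 and 399 CPM to 181 and 188. No member had Xcr1 or Clec9a, by the gate, and Cadm1, another cDC1 gene, had 0 to 5 UMIs per library.

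Ear2 (chr14:44102654-44103534, plus strand), a ribonuclease of the eosinophil-associated family, was at 107 and 211 CPM in Sed and at 11.1 and 0 CPM in Ex, a log2 change of -4.75 ± 0.51 (adjusted p = 5.33e-06). It belongs to a family of near-identical copies, so its counts are uncertain. The gene was detected in 38 of 58 members of Sed 2 and in 6 of 79 and 0 of 39 in Ex 1 and Ex 2, against 1.45% of B cell-gated cells. Htra3 (chr5:35652023-35679782, minus strand), a serine protease, was at 107, 67, 4.15 and 2.47 CPM (log2 change -4.28 ± 0.64, adjusted p = 0.000169). Ppp1r14a (chr7:29289308-29293801, plus strand), an inhibitor of myosin phosphatase, was at 493, 197, 34.6 and 32.2 CPM (-3.0 ± 0.39, adjusted p = 1.93e-05). In each of these genes both Sed libraries were above both Ex libraries. Ear2 fell in monocyte-gated cells too (-1.66 ± 0.18, adjusted p = 0.0039), but was not called in cDC1-gated cells (-0.96 ± 0.61, 0.69). Htra3 also fell in monocyte-gated cells, with 23, 74, 0 and 0 UMIs (-8.07 ± 1.27, adjusted p = 0.031). The difference between its changes in cDC2- and monocyte-gated cells did not pass (3.06 ± 1.87, adjusted p = 0.67).

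Other falls included Mmp12, the macrophage elastase (129, 33.5, 1.38 and 7.42 CPM), and the paired immunoglobulin-like receptors Pilra, Pilrb1 and Pilrb2. Pilra was at 85.8, 128, 26.3 and 9.9 CPM (log2 change -2.61 ± 0.42, adjusted p = 0.000398), and the 3 genes lie side by side on chromosome 5 with similar sequence, so they may share reads. Clec4n, which encodes the lectin dectin-2, was at 193, 151, 37.3 and 9.9 CPM (-2.59 ± 0.40, adjusted p = 0.000277) and was the 1 gene of 8 tested C-type lectins outside the gate that was called. The insulin receptor substrate Irs2, Spon1, an extracellular matrix protein, and Mtss1 fell by 2.75, 2.28 and 2.15 on the log2 scale. Mmp12 was not called without Sed 1 (adjusted p = 0.19), Ex 1 (0.27) or Ex 2 (0.085), Pilra and Mtss1 not without Sed 2 or Ex 2, Irs2 not without Sed 2, and Clec4n and Spon1 not without Ex 2. Mtss1 was not called without Ex 1 either. Ly6a, the surface protein Sca-1, was at 1887 and 1308 CPM in Sed and at 573 and 285 CPM in Ex (-1.85 ± 0.29, adjusted p = 0.00899), and fell in cDC1-gated cells too (-1.99 ± 0.26).

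Lyz2 (chr10:117277331-117282321, minus strand), the lysozyme of myeloid cells, was at 1094 and 875 CPM in Sed 1 and Sed 2 and at 3679 and 3582 CPM in Ex 1 and Ex 2. The log2 change was 1.91 ± 0.14 (adjusted p = 8.28e-10). Of 13 tested monocyte markers 2 rose (Lyz2 and F13a1, which encodes a coagulation factor subunit), 1 fell (Plac8) and the median was 0.35. F13a1 was at 0, 41.8, 105 and 233 CPM, and Fn1, fibronectin, at 0, 75.3, 190 and 269.7 CPM, both called but not without Ex 2. Plac8 was not called without Sed 2, Ex 1 or Ex 2. Ccr2, the receptor that takes monocytes and pre-dendritic cells out of bone marrow, was at 429, 205, 582 and 527 CPM and did not pass (1.05 ± 0.29, adjusted p = 0.062). A UMI of Ccr2 was present in 1 of 5, 20 of 58, 68 of 79 and 31 of 39 members. After thinning these shares were 20%, 24.1%, 60.8% and 53.8%, with B cell-gated cells at 3.38%. Without Sed 1, whose Ccr2 came from 1 cell, the change was 1.38 (adjusted p = 1.35e-05), and without the cells of the highest doublet scores it was 2.03 (8.74e-05). Without Sed 2 it was 0.45 (adjusted p = 0.58), without Ex 1 0.91 (0.69) and without Ex 2 1.11 (0.69). Ly6c2 was at 0, 126, 290 and 188 CPM (adjusted p = 0.33) and Fcgr1 at 21.4, 54.4, 144 and 89.1 CPM (0.17). Without the members that had a UMI of either, the Lyz2 change was 1.2 (adjusted p = 0.82) and that of Vim, an intermediate filament, was 2.28 (0.22), while Crip1, a LIM domain protein, stayed called (1.83, adjusted p = 0.000565). In the same fit Idi1 (3.23, adjusted p = 0.041) and Il1b (1.36, 0.041) stayed called. Irf8 (2.14, adjusted p = 0.11), Cd40 (2.15, 0.49), Fdps (2.21, 0.15), Hmgcs1 (2.42, 0.091) and Top2a (-0.98, 0.54) did not. That fit holds fewer cells, and the part of monocyte RNA in these changes was not tested.

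**Figure D4:**
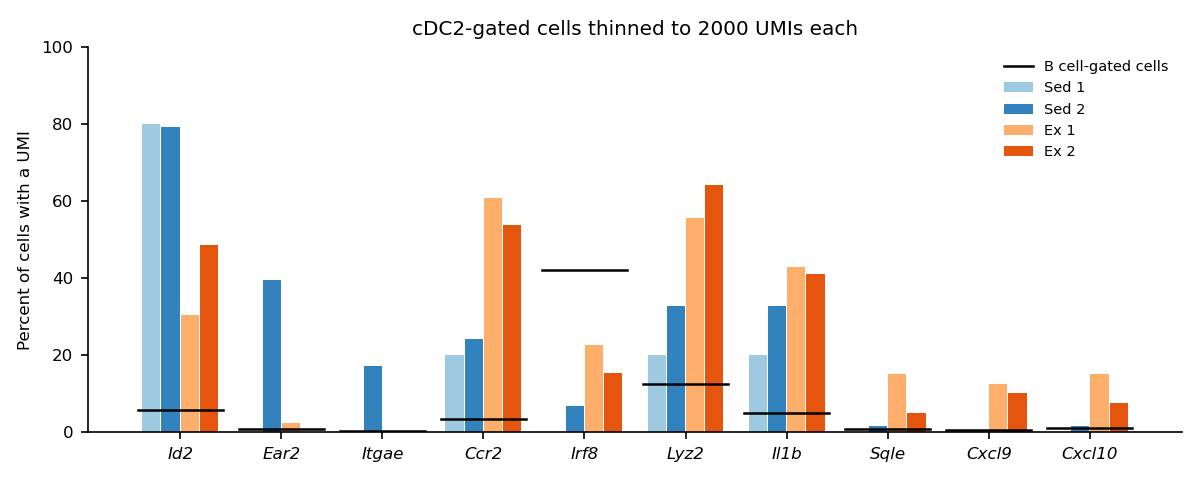
Percent of cells with at least 1 UMI of 10 genes after each cell was thinned to 2000 UMIs, in cDC2-gated cells of each library (bars) and in B cell-gated cells of all libraries (black line). Id2, Ear2 and Itgae are detected in more cells of Sed 2 than of Ex 1 and Ex 2, and Ccr2, Lyz2, Sqle, Cxcl9 and Cxcl10 in fewer; Sed 1 bars rest on 5 cells, and the B cell line is high for Irf8, which B cells express.

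Hmgcs1, Idi1, Fdps and Sqle, genes of a cholesterol list, rose. This list of 24 genes was drawn up after several had been seen among the rises, so its count is no independent evidence. Of 12 tested genes 5 rose, none fell and the other 7 had positive changes; the median was 1.6, against 0.02 over all genes. Hmgcs1, the synthase at the entry of the mevalonate pathway, was at 0, 25.1, 77.5 and 109 CPM (1.96 ± 0.47, adjusted p = 0.027). Idi1, the isopentenyl isomerase, was at 0, 14.6, 59.5 and 84.1 CPM (2.34 ± 0.55, 0.024), and Fdps, the farnesyl diphosphate synthase, at 21.4, 20.9, 73.3 and 143 CPM (2.25 ± 0.49, 0.015). Sqle, the squalene epoxidase, had 2 UMIs in Sed and 49 in Ex, a ratio of 11.4 (2.99 to 96.8). None of these 4 genes was called without Ex 2 (adjusted p 0.16 to 0.45) or without Sed 2 (0.14 to 0.45), and Sqle was not without Ex 1 (0.72). In cDC1-gated cells Fdps (1.39 ± 0.33, adjusted p = 0.010) and Idi1 (1.77 ± 0.43, 0.013) rose too, and the difference between the changes in cDC2- and cDC1-gated cells passed for none of the 4 (adjusted p 0.44 to 0.94). For Fdps, that difference was 0.87 ± 0.58.

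Of 15 tested class II presentation genes outside the gate, none rose and 1 fell, with a median of 0.08. H2-DMb2, part of the chaperone that loads peptide on class II, was at 343 and 274 CPM in Sed and at 151 and 84.1 CPM in Ex (-1.29 ± 0.30, adjusted p = 0.0235), and was not called without Sed 2, without Ex 1 or without Ex 2. Cd74, the invariant chain, was at 20030, 16575, 16903 and 13234 CPM (-0.28 ± 0.11, adjusted p = 0.33), and Ciita, the master regulator of class II, at 386, 262, 350 and 351 CPM (0.22 ± 0.27, 0.92). None of 20 class I presentation genes was called (median 0.15). B2m, the class I light chain, was at 2209, 1887, 1629 and 1517 CPM (adjusted p = 0.30).

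Of 14 tested costimulatory and checkpoint genes, Cd40 rose, none fell and the median was 0.03. Cd40, the receptor through which T cells activate dendritic cells, was at 0, 14.6, 81.6 and 47 CPM (2.28 ± 0.57, adjusted p = 0.0321), and leaving out Sed 2, Ex 1 or Ex 2 ended the call. Cd86 was at 85.8, 159, 118 and 114 CPM (adjusted p = 0.86), Cd83 at 107, 132, 147 and 156 CPM (0.93) and Cd274, the ligand PD-L1, at 85.8, 62.8, 27.7 and 42.1 CPM (0.38). Of 7 tested cytokine genes Il1b rose, none fell and the median was -0.23. Il1b, the inflammasome cytokine, was at 300.2 and 343 CPM in Sed 1 and Sed 2 and at 653 and 859 CPM in Ex 1 and Ex 2 (1.16 ± 0.25, adjusted p = 0.014). It was not called without Ex 2 (adjusted p = 0.67) or without the cells of the highest doublet scores (0.46). Tnf was at 0, 105, 20.7 and 56.9 CPM (adjusted p = 0.42) and Il18 at 42.9, 41.8, 19.4 and 7.42 CPM (0.30). Il12b had no UMI in any library and Il10 had 1. Ccr7, the lymph node homing receptor of mature cells, had 0, 3, 16 and 4 UMIs, and Ccl17 had 0, 6, 35 and 1.

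In the remaining lists, Top2a, the topoisomerase of dividing cells, was the 1 called gene of 13 tested cell cycle genes. It was at 21.4, 167, 51.2 and 32.2 CPM (-1.74 ± 0.41, adjusted p = 0.027), with overlap between the groups and the opposite sign without Sed 2 (1.09), and was not called without Ex 1 or Ex 2. The list's median was -1.0, and at least 3 UMIs of Mki67 and Top2a together were present in 0 of 5, 8 of 58, 4 of 79 and 2 of 39 members. Hspa1a, an inducible heat shock protein, fell among 24 early response and heat shock genes (1630, 1421, 591 and 804 CPM, -1.13 ± 0.19) but not without Ex 1, and the list's median was 0.02. Of 80 cytosolic ribosomal proteins Rps24 fell (-0.40, not without Ex 1 or Ex 2) and the median was -0.15. None was called among 11 migration receptors (median 0.43), 15 glycolysis genes (0.31), 77 of oxidative phosphorylation (0.10), 10 antioxidant genes (0.14), 9 of lipid handling (-0.13) or 9 of pattern recognition (0.01). Gm42418, which overlaps ribosomal RNA sequence and can take its reads, was 1.65-fold higher in Ex (18764, 21109, 30934 and 35565 CPM).

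**Figure D5:**
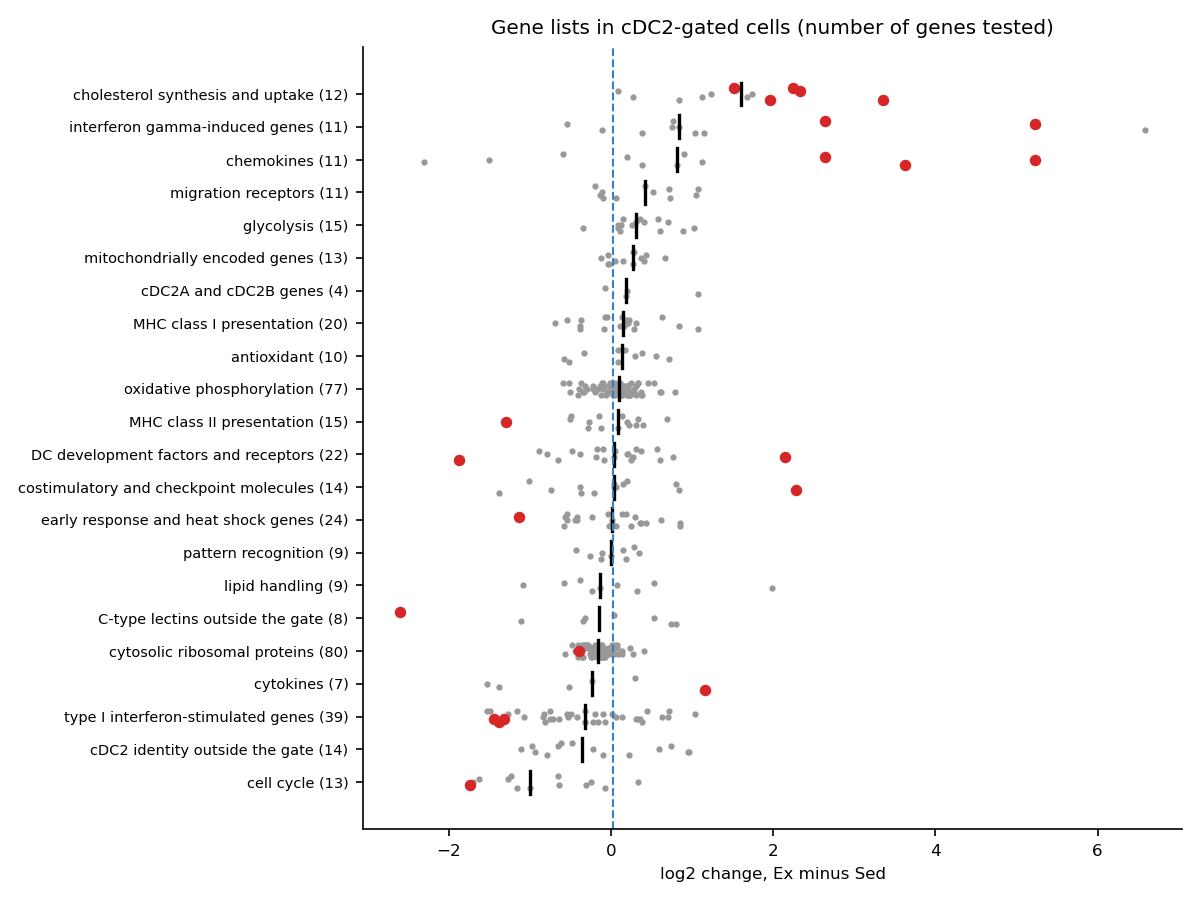
Log2 change from Sed to Ex of each tested gene in 22 lists (number tested in brackets), with genes at an adjusted p under 0.05 as red dots, other genes as grey dots and the list's median as a black bar. The dashed blue line is the median of all genes tested (0.02); the cholesterol list, chosen after values were seen, has the highest median (1.6) and the cell cycle list the lowest (-1.0).

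The last comparisons asked whether these differences were larger in cDC2-gated than in cDC1-gated or monocyte-gated cells of the same libraries. The difference of the changes was tested itself, with the library as a block. The differences of single genes below are from the fit of all libraries, and whether each held with a library left out is not given. Against cDC1, 93 of 5772 genes were called (1.61%), 61 with the cDC2 change more positive and 32 with it more negative. Against monocyte-gated cells, 122 of 8504 were called (1.43%), 54 and 68. Leaving out libraries moved the first count to between 26 and 143 and the second to between 9 and 346.

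Id2 fell more in cDC2 than in cDC1 by 1.77 on the log2 scale (SE 0.26, adjusted p = 3.12e-09) and more than in monocyte-gated cells by 1.36 (0.34, adjusted p = 0.0167). In cDC1 Id2 was at 1883 and 1483 CPM in Sed and at 1553 and 1578 CPM in Ex. Itgae fell more than in cDC1 by 3.04 (0.59, adjusted p = 4.47e-05), and for Ear2 the differences were -3.60 and -3.19. The change of Irf8 was more positive than in cDC1 by 1.90 (0.36, adjusted p = 3.33e-05) and that of Il1b by 2.0 against cDC1 and 1.83 against monocyte-gated cells. The Lyz2 change was more positive by 3.38 (0.32) and 1.39 (0.24). In cDC1-gated cells Lyz2 was at 499, 1639, 449 and 386 CPM. S100a8, a neutrophil and monocyte gene, was at 659, 808, 56.4 and 7.09 CPM there. The log2 change of S100a8 was -4.46 in cDC1-gated cells. It was -3.44 in monocyte-gated cells and did not pass (adjusted p = 0.35). Il1b changed by -0.58 in cDC1-gated and -0.52 in monocyte-gated cells and passed in neither (adjusted p = 0.96 and 0.22). The part of neutrophil RNA in the Lyz2 and Il1b differences was not tested.

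Cxcl9 differed from cDC1 (2.95 ± 0.82, adjusted p = 0.023), where it was at 148, 26.3, 256 and 145 CPM and so overlapped between the groups. It did not pass against monocyte-gated cells (-0.67 ± 1.23, adjusted p = 0.95), where it rose from 1.48 and 2.21 CPM to 125 and 147 CPM. Cxcl10 passed in neither (adjusted p = 0.10 and 0.75). A p above the threshold does not show that the changes were alike. Top2a rose in cDC1 (1.77 ± 0.37), and its change in cDC2 was -1.74 with all libraries but 1.09 without Sed 2. The difference of the changes was -3.06 ± 0.44 (adjusted p = 1.66e-09). The fall in cDC2 rests on Sed 2. The value listed for Sed 1, 21.4 CPM, is 1 UMI, too few to place that library above or below the Ex libraries. The 3 richest cells carried most Top2a UMIs: 50 out of 80 (Sed 2), 33 out of 37 (Ex 1) and 12 out of 13 (Ex 2).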

How the data were processed

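The deposited matrix holds raw UMI counts per gene and cell barcode, made by the authors with Cell Ranger 7.0.0 on mm10 and GRCm38 per the submitters' processing notes, while the file header names 6.1.1. Of 51140 columns 28525 carry a barcode and 22615 were not used. Barcode suffixes were taken to follow the order of the libraries, on which every comparison rests. Library breaks in the matrix lay 1, 16 and 35 cells from the barcode borders.

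Counts were summed per library over gated cells and tested with edgeR 4.0.16 (quasi-likelihood, robust, filterByExpr, TMM, Benjamini-Hochberg over all genes tested, threshold 0.05) in R 4.3.3, with DESeq2 1.42.0 as an alternative. The script was tested on simulated data with planted changes. It called 26 of 99 changes of 2-fold, 84 of 96 of 4-fold and 2 of 4394 genes without a change. Most 2-fold changes were thus missed there. Changes were planted only in genes above a minimum mean CPM, and each gene was given the same spread in every library. The rates therefore do not carry over to genes of low level or to the few cells of Sed 1. The SE was derived from the log2 change and the F statistic (ratio to its root). CPM scales the UMIs of the summed cells of a library to a common total. Errors of levels are SD, n = 2 libraries. Doublets were scored with the Scrublet of scanpy 1.11.5, whose automatic threshold marked 0.0165% and 0.0236% in Ex 1 and Ex 2, so the highest scores up to an expected number (422, 462, 293 and 144 cells) were marked, and removed as an alternative only.

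Comparison gates, with the class II, Siglech, Cd79a, Cd3e and C1qa conditions of the cDC2 gate unless stated: cDC1, at least 2 UMIs of Xcr1 and Clec9a and none of Cd209a, Clec10a and Mgl2; monocyte-gated, at least 3 of Ly6c2 and Ccr2, Csf1r, class II under 20, none of the cDC2, mature or neutrophil markers. Mature cells had at least 3 UMIs of Fscn1 and Ccl22, and B cell-gated cells at least 3 of Cd79a with no Cd3e or C1qa.

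Members, gates and the 33 gene lists were chosen with earlier results of these data known, and the cholesterol list after values were seen here. Some members of the lists are counted but not reported here by name. Named were the 12 largest rises and falls with at least 10 CPM and no overlap, up to 4 called genes per list (or 3 by level), a fixed set and the 6 largest differences between cell types; other called genes named in the text (Crip1, Vim, Ly6a, Rgs1, Fn1, Gm42418 and others) and Ccl3 were chosen after values were seen. Cd24a and Clec12a were also chosen after values were seen. Python 3.11.15, numpy 2.4.6, scipy 1.17.1 and pandas 2.3.3 were used.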

Additional observations from a re-analysis of the deposited data

Results flagged for a closer look

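The 6 genes with the largest difference of the exercise change between cDC2- and cDC1-gated cells were singled out because the difference itself passed the test. Differences are log2, cDC2 minus the other type, and where a group is near 0 UMIs their size depends on the fit. UMIs are given for Sed 1, Sed 2, Ex 1 and Ex 2. Retnlg differed by 12.14 (1, 3, 266 and 0 UMIs in cDC2 and 30, 195, 1 and 0 in cDC1), S100a9 by 6.93 (5, 55, 1096 and 4 against 167, 472, 23 and 4) and Lcn2 by 9.28 (2, 18, 84 and 2 against 89, 51, 0 and 0). These are neutrophil genes. In cDC2 a single Ex 1 member held 2087 UMIs of S100a8, S100a9 and Retnlg, and without it the Ex change of S100a9 turned from 2.74 to -2.58. Hba-a1, a haemoglobin gene, differed by 8.95 (0, 3, 10 and 9 against 1, 870, 3 and 2). AA467197 differed by 9.88 (0, 2, 63 and 33 against 3, 8, 0 and 0) and Acss1, an acetyl-CoA synthetase, by 7.07 (0, 0, 14 and 10 against 9, 15, 5 and 4).

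Against monocyte-gated cells the 6 largest were Dgat2, a triglyceride enzyme, at 9.30 (0, 0, 13 and 3 UMIs in cDC2 and 203, 290, 55 and 38 in monocyte-gated cells), Ets2 at 9.24 (0, 0, 13 and 8 against 319, 663, 138 and 145) and Epcam at 8.14 (0, 1, 6 and 16 against 0, 12, 0 and 0). On the other side were Cd34 at -4.33 (1, 18, 8 and 1 against 10, 10, 19 and 21), Sept1 at -4.32 (1, 19, 4 and 3 against 13, 14, 32 and 10) and Spns3 at -4.32 (0, 30, 8 and 4 against 3, 3, 10 and 4).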

How the results depend on the processing

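The count of genes called in cDC2-gated cells (74) was 12 with DESeq2 (118 at an unadjusted p under 0.05), 157 with a marker minimum of 5 UMIs, 34 without members with Ly6c2 or Fcgr1, 7 of 594 tested with the sums thinned to the smallest total, and 25 to 211 with a library left out. At the marker minimum of 5 UMIs Sed 1 held no member. The Sed group of that fit was therefore Sed 2 alone, as when Sed 1 is left out. With the replicate number as a block the count of called genes was 59 (29 higher and 30 lower, 46 of them among the 74). The libraries share only a number, since the correlation of deviations of same-numbered libraries was 0.05 and no label pairs them. RLE scaling, no count filter, the stricter cell filter and doublet removal gave 78 to 102, and leaving out the neutrophil-rich member (chosen after seeing the data) gave 92. The difference from cDC1 (93) was 42 without the highest doublet scores and 26 to 143 with a library left out; that from monocyte-gated cells (122) was 9 to 346. The share difference stayed positive at 0.235 to 1.17 percentage points, leave-one-out 0.349 to 1.04 and 0.77 with 1 UMI of the excluded genes allowed (added after seeing the data). Of the 74 called genes 72 kept their sign under every alternative. Without Sed replicate 2 Thbs1 turned from -2.37 to 6.14 and Top2a from -1.74 to 1.09. Without the neutrophil-rich member S100a8 was -2.87 and S100a9 -2.58, and with a library left out S100a9 was between -3.51 and 3.74, Thbs1 between -2.79 and 6.14 and Top2a between -2.09 and 1.09. The cause was not tested. The depth of Sed 1 limits every gene under 64.3 CPM there, and with a library left out 1 arm has 1 library whose spread is assumed like the others.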
